A study of Mus musculus with 2 samples.

Results

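The interleukin-6 family of cytokines was followed here through 9 of the 32285 genes counted in each library: the ligand genes Il6, Lif and Osm, the receptor genes Il6ra, Il6st, Osmr and Lifr, and the intracellular genes Socs3 and Stat3. The genes were listed by name, all 9 were present in both count matrices, and their levels were read by cell class in barcodes that reached 500 unique molecular identifiers (UMIs) and 200 genes, with no more than 50% of their UMIs mitochondrial. Droplet-based single-cell RNA was measured at day 14 after ischemia-reperfusion injury of 1 kidney, induced by clamping its renal artery, and both groups had received 4 tamoxifen injections after the injury. The control library was labelled Cre-, with no further allele given, and the other library, called haplodeficient here, was labelled Cdh5-CreERT2; Phd3f/+. Cdh5 drives this tamoxifen-activated recombinase in endothelial cells, and 1 of the 2 copies of Phd3 (gene symbol Egln3), an oxygen-dependent prolyl hydroxylase, was floxed. The labels placed both libraries in batch 1 and did not state how many animals or what sex or age went into a library. Each group had 1 library, so no difference between groups could be tested, and every interval given covers counting error within a library and not the spread between animals or preparations.

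Cytokines of this family act through gp130, the shared signal-transducing receptor encoded by Il6st. Interleukin-6 first binds its own receptor chain (Il6ra), in membrane-bound or soluble form. Leukemia inhibitory factor (Lif) pairs gp130 with Lifr, and oncostatin M (Osm), in the mouse, mainly pairs it with Osmr. The receptors activate Janus kinases, which phosphorylate the transcription factor Stat3, and Stat3 induces Socs3, a feedback inhibitor that binds gp130. In injured kidney the family is known for acute-phase and tubular repair responses and for communication between leukocytes, stroma and epithelium.

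On the GENCODE M21 annotation of GRCm38, the neighbouring genes Osm (chr11:4236420-4241026, plus strand) and Lif (chr11:4257557-4272514, plus strand) were 16531 bases apart. Osmr (chr15:6813577-6874969, minus strand) and Lifr (chr15:7090614-7197489, plus strand) were 215645 bases apart. Il6 lay at chr5:30013114-30019981 on the plus strand, Il6ra at chr3:89864059-89913196 on the minus strand and Il6st at chr13:112464070-112510086 on the plus strand. Stat3 (chr11:100885098-100939540) and Socs3 (chr11:117966079-117970047) both lay on the minus strand. All 9 were annotated as protein-coding.

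RefSeq promoter windows (GRCm38.p6) matched 8 of the 9 genes, with 2 windows for Lifr and no entry for Osm. The 250 bases before each start were searched for the spaced palindrome TTCNNNGAA, the general form of a STAT recognition site, which reads the same on both strands, and for its stricter form TTCCNGGAA, which it contains. Of the 9 windows, 1 held TTCNNNGAA, that of Socs3, 154 bases before the start. Over 32851 promoters, 7.02% held that motif and 0.913% held the stricter form, which was in none of the 9 windows. The Socs3 stretch is shown because Socs3 is the feedback gene of the pathway and its window is the 1 with the motif, which is in capitals. It is the minus strand at chr11:117969452-117969616, 165 bases that lie inside the annotated Socs3 gene and overlap none of its annotated exons. A match of letters describes this window and does not show binding.
Socs3 promoter: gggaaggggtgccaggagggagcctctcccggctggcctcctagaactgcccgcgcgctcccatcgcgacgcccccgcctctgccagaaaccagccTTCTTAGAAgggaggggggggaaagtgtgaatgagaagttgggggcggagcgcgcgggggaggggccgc

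After filtering and removal of likely doublets, the control library held 8737 cells with a median of 8762 UMIs and the haplodeficient library 9222 cells with a median of 5471.5. The libraries differed before any gene of the family was read. Proximal-tubule-like cells were 35.3% of control cells and 4.16% of haplodeficient cells, neutrophil-like cells 1.18% and 6.70%, T cell-like cells 2.04% and 11.3%, macrophage-like cells 8.44% and 12.3%, and endothelial-like cells 4.14% and 8.61%. The median mitochondrial share per cell was 10.2% and 2.69%. A summed list of 13 dissociation-stress genes stood at 8034 and 11516 CPM (UMIs of the genes scaled to the same total of UMIs in each library or class), and 28 barcodes were shared between the libraries. Of 35 clusters, 29 were given 1 of 17 class names from markers and 6 stayed unnamed; 13 classes had at least 100 cells in each library and were compared. A cluster of 11 and 45 cells, plasmacytoid dendritic cell-like by 5 of 6 markers, also had 8 of 8 B cell markers and B cell genes among its leading genes, against its name, and its values are not described. Each compared class had UMIs for all of its markers in both libraries. Egln3 in endothelial-like cells stood at 24.2 CPM (58 UMIs) in the control library and 21.1 CPM (112 UMIs) in the haplodeficient library, a ratio of 0.870 (95% counting interval 0.628 to 1.22). 3′-end tags may lie outside the floxed part of the gene, so this value checks nothing about the deletion.

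The 9 genes divided among the cell classes by role. Osm and Il6ra were read mainly in myeloid cells, Il6 in stroma, endothelium and dendritic cell-like cells, Lif in distal nephron and collecting duct, Osmr in stroma, endothelium and tubule with near absence in leukocytes, and Il6st, Socs3 and Stat3 in nearly every class. Levels are UMIs summed over the cells of a class and scaled to CPM within that class and library. In such sums a lower level can mean fewer expressing cells or less RNA per cell, and the share of cells with a UMI is given where it separates these.

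**Figure D1:**
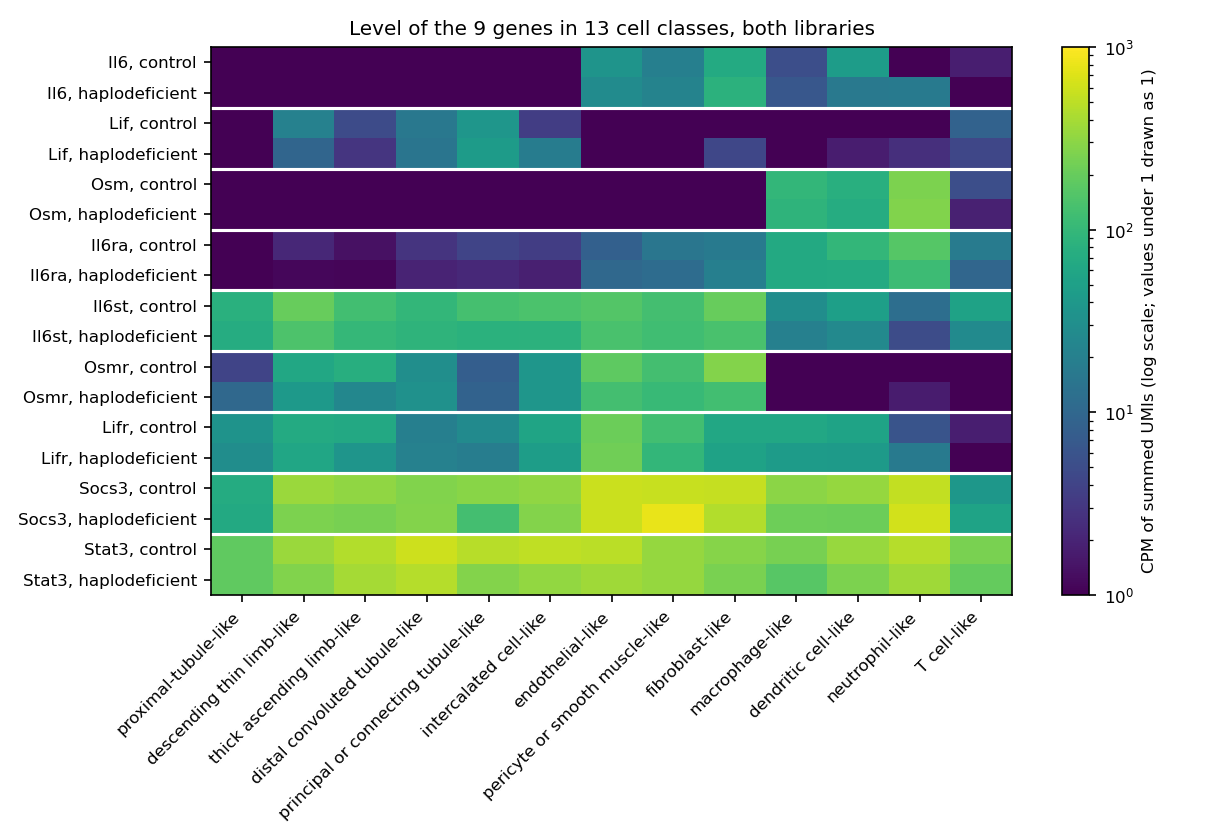
CPM of summed UMIs (log colour scale, values under 1 drawn as 1) of the 9 genes in the 13 compared cell classes, 1 row per gene and library. Osm is bright in neutrophil-, macrophage- and dendritic cell-like columns and dark elsewhere, while Osmr shows the reverse, with 278 CPM in control fibroblast-like cells.

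Il6 stood highest in fibroblast-like cells, at 67.8 CPM (39 UMIs, interval 48.2 to 92.7) in the control library and 85.7 CPM (78 UMIs, 67.7 to 107) in the haplodeficient library. Those intervals overlapped, and the ratio was 1.26 (0.850 to 1.91). Endothelial-like cells held 35.5 CPM (85 UMIs, 28.4 to 43.9) and 28.2 CPM (150 UMIs, 23.9 to 33.1), again overlapping, with a ratio of 0.795 (0.605 to 1.05). Pericyte or smooth muscle-like cells held 19.8 and 22.1 CPM and macrophage-like cells 5.32 and 6.49 CPM. Within the macrophages the 2 clusters went opposite ways: the cluster led by Ccl12 and Ccl8 held 6.83 and 2.38 CPM (18 and 9 UMIs), and the cluster led by Gpnmb and Fabp5 held 3.40 and 9.35 CPM (7 and 51 UMIs). Neutrophil-like cells had 0 UMIs in the control library, for which the exact Poisson interval reaches 22.3 CPM. They had 20 UMIs in the haplodeficient library, of which 15 came from 1 of 618 cells. Proximal-tubule-like cells had no Il6 UMI in 3088 control and 384 haplodeficient cells.

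Among the 4 classes with enough Il6 signal, dendritic cell-like cells had the ratio farthest from 1. They held 46.0 CPM (41 UMIs, 33.0 to 62.4) in the control library and 16.3 CPM (28 UMIs, 10.9 to 23.6) in the haplodeficient library, and the intervals did not overlap. The ratio was 0.355 (0.212 to 0.589), and 17 of 113 cells against 16 of 201 cells had a UMI. Of the 7389 genes with enough signal in this class, 2.27% passed the same size rule, which asks for 10 CPM or more on average, 10 UMIs or more in total, a log2 ratio of CPM + 5 of 1 or more in size, and separate Poisson intervals. Of the 7 members with enough signal there, Il6 was the 1 that passed. The log2 ratio was -1.26, but it was 0.83 when each library had its own higher UMI minimum and 0.53 when each cell was named alone, so the direction changed with how the class was drawn. Macrophage markers in these cells, detected for 11 of 11 genes in both libraries, summed to 4050 and 5264 CPM. The class's own 8 dendritic cell markers summed to less, 722 and 653 CPM. The part of these sums in the difference was not tested.

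**Figure D2:**
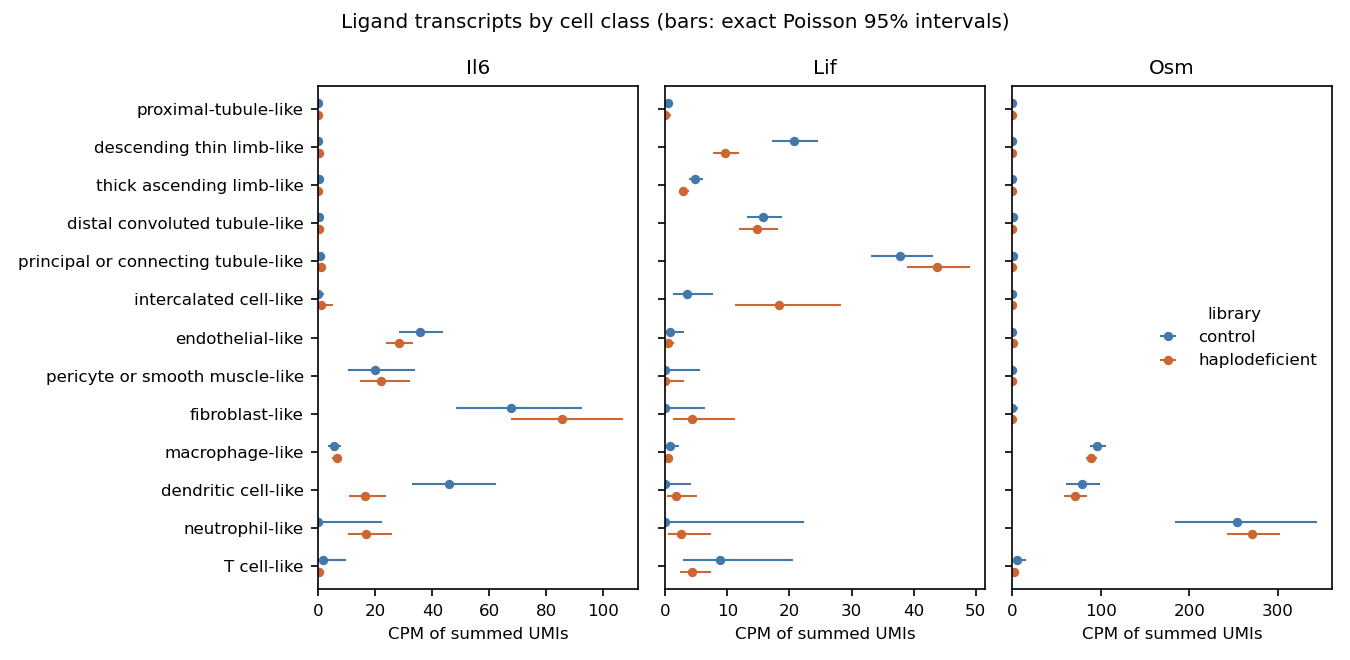
CPM of Il6, Lif and Osm (x axes, 1 scale per gene) in the 13 classes; points are summed UMIs of 1 library and bars exact Poisson 95% intervals. Il6 bars separate in dendritic cell-like cells (46.0 and 16.3 CPM), Lif bars in descending thin limb- and intercalated cell-like cells, and Osm bars in no class.

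The largest shares of Lif UMIs were held by the unnamed cluster 14 and by principal or connecting tubule-like cells. Principal or connecting tubule-like cells held 37.8 CPM (229 UMIs, 33.1 to 43.1) in the control library and 43.8 CPM (300 UMIs, 39.0 to 49.1) in the haplodeficient library, a ratio of 1.16 (0.972 to 1.38), with a UMI in 11.4% and 14.6% of cells. Distal convoluted tubule-like cells held 15.8 and 14.7 CPM, with a ratio of 0.933 (0.704 to 1.23). The deep unnamed cluster 14, which had markers of intercalated and of principal cells, held 29.6 CPM (250 UMIs, 26.0 to 33.5) and 48.2 CPM (415 UMIs, 43.7 to 53.0), a ratio of 1.63 (1.39 to 1.91), with a UMI in 63 of 287 and 99 of 230 cells. Endothelial-, pericyte- and macrophage-like cells held less than 1 CPM of Lif in both libraries.

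Lif UMIs were concentrated in few cells, and 1 cell could set a ratio. Intercalated cell-like cells held 3.51 CPM (6 UMIs, 1.29 to 7.63) in the control library and 18.3 CPM (20 UMIs, 11.2 to 28.3) in the haplodeficient library, a ratio of 5.23 (2.03 to 15.9) that passed the size rule, as did 2.94% of genes in that class. Of the 20 UMIs, 17 came from 1 cell, and 4 of 175 and 4 of 109 cells had any. Without the cell with most Lif UMIs in each library the levels were 1.77 and 2.79 CPM, on 3 UMIs each. Descending thin limb-like cells held 20.7 CPM (126 UMIs, 17.2 to 24.6) and 9.64 CPM (86 UMIs, 7.71 to 11.9), a ratio of 0.467 (0.351 to 0.619). There, 55 of the 126 control UMIs came from 1 cell, and without the top cell of each library the levels were 11.8 and 8.72 CPM with a ratio of 0.739 (0.528 to 1.03). In the shallow, dividing cluster 21, Lif stood at 73.5 CPM (57 UMIs in 8 of 76 cells) and 7.46 CPM (7 UMIs in 5 of 221 cells).

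Osm was a myeloid transcript in both libraries. Neutrophil-like cells held 254 CPM (42 UMIs, 183 to 344) in the control library and 271 CPM (322 UMIs, 242 to 302) in the haplodeficient library, a ratio of 1.06 (0.770 to 1.51). Macrophage-like cells held 96.3 CPM (452 UMIs, 87.6 to 106) and 89.6 CPM (828 UMIs, 83.6 to 95.9), a ratio of 0.931 (0.829 to 1.05), and dendritic cell-like cells 78.5 and 71.2 CPM, a ratio of 0.907 (0.671 to 1.23). Intervals overlapped in all 3 classes, so no difference in level per class was detectable at this depth. Monocyte-like cells, with 55 control cells too few to be compared, had 1 UMI (4.03 CPM) in the control library and 87 UMIs (46.6 CPM, 37.4 to 57.5) in the haplodeficient library. Between the macrophage clusters, the one led by Ccl12 and Ccl8 held 78.9 and 92.7 CPM of Osm, a ratio of 1.17 (0.986 to 1.40), and the one led by Gpnmb and Fabp5 held 118 and 87.4 CPM, a ratio of 0.738 (0.632 to 0.865).

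The share of cells with an Osm UMI was 27.0% and 32.3% in macrophage-like cells (median depths 4995 and 6026 UMIs) and 6.68% and 6.83% after each cell was thinned to 1000 UMIs. In proximal-tubule-like cells, which should lack the gene, the share was 0.162% and 0.260% at median depths of 10821.5 and 6741.5 UMIs. The level expected from free RNA amounted to 96.8% and 100% of those few Osm UMIs.

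The ligand UMIs of a whole library came from differing cell mixes. Macrophage-like cells held 74.6% of all Osm UMIs in control cells and 58.6% in haplodeficient cells, while neutrophil-like cells held 6.93% and 22.8% and monocyte-like cells 0.165% and 6.16%. Il6 UMIs came from endothelial-like cells for 33.7% and 34.1%, from fibroblast-like cells for 15.5% and 17.7%, and from dendritic cell-like cells for 16.3% and 6.36%. Lif UMIs came from cluster 14 for 26.0% and 39.4% and from principal or connecting tubule-like cells for 23.8% and 28.5%. Over all cells, Osm stood at 5.67 and 15.1 CPM, a ratio of 2.66 (2.42 to 2.93), Il6 at 2.36 and 4.70 CPM, and Il6ra at 7.14 and 16.7 CPM. The pooled Osm ratio stood beside ratios of 0.907 to 1.06 within the 3 classes that held most of it.

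**Figure D3:**
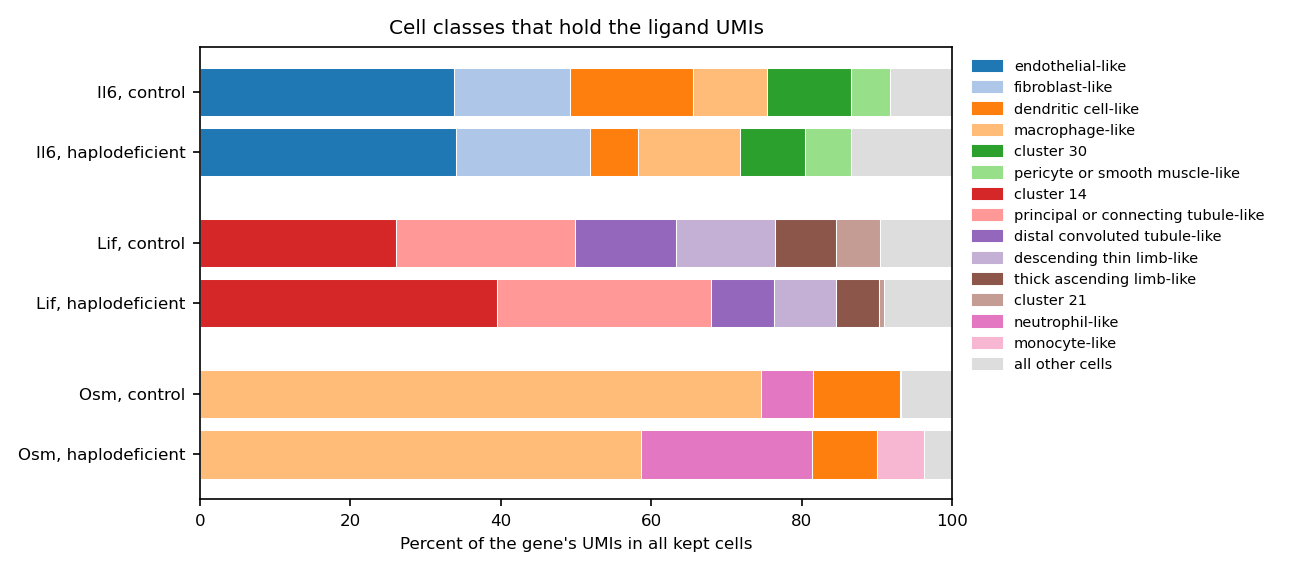
Percent of all UMIs of Il6, Lif and Osm in kept cells (x axis) by the class or unnamed cluster that holds them, 1 bar per gene and library. Neutrophil-like cells hold 6.93% of Osm UMIs in the control library and 22.8% in the haplodeficient library; endothelial-like cells hold 33.7% and 34.1% of Il6 UMIs.

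Among the receptors, Il6ra was read in myeloid cells but not only there. It had enough signal in 6 compared classes. Besides macrophage-, dendritic cell- and neutrophil-like cells these were T cell-, fibroblast- and pericyte or smooth muscle-like cells, whose levels are not given here. Il6ra stood at 190 CPM (139 to 252) in control and 199 CPM (179 to 220) in haplodeficient monocyte-like cells. In neutrophil-like cells it stood at 164 CPM (108 to 238) and 115 CPM (96.8 to 136). Dendritic cell-like cells held 97.6 CPM (87 UMIs, 78.1 to 120.4) and 68.9 CPM (118 UMIs, 57.0 to 82.5), a ratio of 0.706 (0.531 to 0.942). Macrophage-like cells held 66.4 and 65.8 CPM, a ratio of 0.990 (0.862 to 1.14). Monocyte- and neutrophil-like cells were not separated in the control library, and macrophage- and dendritic cell-like cells not in the haplodeficient library. Il6ra stood at 8.35 and 10.4 CPM in endothelial-like cells and at 4.13 CPM or less in the 6 tubule classes, so the tubule carried little of the transcript for the membrane receptor of interleukin-6. The small urothelium-like class, with 18 and 24 cells, was an epithelial exception at 60.6 and 61.1 CPM.

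Il6st, the gp130 gene, was read in every compared class, and its order ran from tubule, stroma and endothelium down to leukocytes. Descending thin limb-like cells held 202 CPM (1232 UMIs, 191 to 214) in the control library and 144 CPM (1287 UMIs, 137 to 152) in the haplodeficient library, with no overlap and a ratio of 0.714 (0.660 to 0.773). Fibroblast-like cells held 203 and 136 CPM, a ratio of 0.670 (0.516 to 0.870), and endothelial-like cells 160 CPM (382 UMIs, 144 to 176) and 137 CPM (727 UMIs, 127 to 147), a ratio of 0.857 (0.756 to 0.973). Macrophage-like cells held 29.6 and 20.1 CPM and neutrophil-like cells 12.1 and 5.05 CPM on 2 and 6 UMIs. Neighbours from the descending thin limb to the thick ascending limb in this order had overlapping intervals in both libraries.

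The Il6st ratio was below 1 in all 12 classes with enough signal, and its interval excluded 1 in 10 of them. The exceptions were distal convoluted tubule-like cells at 0.923 (0.826 to 1.03) and pericyte or smooth muscle-like cells at 0.939 (0.712 to 1.24). The lowest ratios were 0.513 in T cell-like, 0.520 in dendritic cell-like, 0.603 in intercalated cell-like and 0.645 in principal or connecting tubule-like cells, and the median log2 ratio was -0.47. Of 4847 genes with enough signal in the same 12 classes, 1.49% had an interval below 1 in at least 10. The 12 ratios come from 1 pair of libraries and are not independent. Under a separate UMI minimum for each library the log2 ratio was 0.50 in place of -0.85 in T cell-like cells and 0.31 in place of -0.82 in dendritic cell-like cells. With cells thinned to 1000 UMIs, that of thick ascending limb-like cells was 0.062 in place of -0.29.

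Osmr was a gene of stroma, endothelium and tubule. Fibroblast-like cells held 278 CPM (160 UMIs, 237 to 325) in the control library and 122 CPM (111 UMIs, 100.3 to 147) in the haplodeficient library, which did not overlap, and the ratio of 0.438 (0.341 to 0.562) passed the size rule, as did 2.88% of genes in that class. Of the 160 control UMIs, 35 came from 1 cell, and without the top cell of each library the log2 ratio was -0.96 in place of -1.16, under the size asked for. Endothelial-like cells held 180 CPM (431 UMIs, 163 to 198) and 127 CPM (673 UMIs, 117 to 137), a ratio of 0.703 (0.622 to 0.796). Pericyte or smooth muscle-like cells held 128 and 104 CPM, a ratio of 0.813 (0.612 to 1.08).

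Thick ascending limb-like cells had the lowest Osmr ratio of any compared class. They held 76.6 CPM (1236 UMIs, 72.4 to 81.0) in the control library and 24.6 CPM (514 UMIs, 22.6 to 26.9) in the haplodeficient library, far apart, with a ratio of 0.322 (0.290 to 0.357). A UMI was found in 34.1% and 24.7% of cells, and in 5.94% and 1.98% after thinning to 1000 UMIs. Both clusters of the class had it: the one led by Psca and Mmp7 held 70.1 and 29.7 CPM, and the one led by Egf and Slc12a1 held 81.5 and 21.9 CPM. In this class 1.06% of genes passed the size rule, and of the 5 members with enough signal Osmr was the 1 that passed. Beside it, the class's own 7 markers summed to 18982 and 14539 CPM and the median mitochondrial share was 10.8% and 4.65%. The part of these differences was not tested. Osmr was past the size rule under each of the 12 alternative settings run for it.

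No other tubule class with enough Osmr signal had a ratio that low. Descending thin limb-like cells held 63.5 and 42.4 CPM, a ratio of 0.668 (0.578 to 0.772), intercalated cell-like cells 38.0 and 37.6 CPM, and distal convoluted tubule-like cells 30.2 and 33.0 CPM, a ratio of 1.09 (0.900 to 1.32). Principal or connecting tubule-like cells held 7.93 and 8.76 CPM, under the minimum of the size rule. Proximal-tubule-like cells held 4.12 CPM (157 UMIs) and 10.2 CPM (42 UMIs), 2.48-fold the control level and also under that minimum. The unnamed cluster led by Havcr1, the kidney injury molecule gene, held 61.3 and 31.1 CPM, a ratio of 0.507 (0.415 to 0.615). Macrophage-like cells had 2 and 8 Osmr UMIs in 737 and 1133 cells, so the class with most Osm UMIs held almost none of its main receptor transcript.

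Lifr was highest in endothelial-like cells among the compared classes, at 213 CPM (509 UMIs, 195 to 232) in the control library and 222 CPM (1182 UMIs, 210 to 235) in the haplodeficient library. The intervals overlapped and the ratio was 1.05 (0.942 to 1.16). Pericyte or smooth muscle-like cells held 125 and 95.9 CPM, a ratio of 0.767 (0.573 to 1.03), and descending thin limb-like cells 67.7 and 59.1 CPM. Thick ascending limb-like cells held 65.4 CPM (1055 UMIs, 61.5 to 69.4) and 36.8 CPM (767 UMIs, 34.2 to 39.5), which did not overlap, with a ratio of 0.562 (0.512 to 0.618). Macrophage-like cells held 63.0 and 44.9 CPM, a ratio of 0.712 (0.612 to 0.830). With both libraries weighted to the same cluster shares the log2 ratio was -0.07 in place of -0.45. The cluster led by Ccl12 and Ccl8 had 102 CPM in the control library and a ratio of 0.974, the one led by Gpnmb and Fabp5 held 13.6 and 7.33 CPM, and the latter made up 180 of 737 and 416 of 1133 cells.

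Socs3, the feedback inhibitor, was highest in mural, neutrophil-like, endothelial- and fibroblast-like cells. Pericyte or smooth muscle-like cells held 561 CPM (368 UMIs, 505 to 622) in the control library and 801 CPM (978 UMIs, 752 to 853) in the haplodeficient library, which did not overlap, with a ratio of 1.43 (1.27 to 1.61). The share of cells with a UMI there was 53.6% and 62.4%, or 30.6% and 42.0% after thinning to 1000 UMIs. Dissociation-stress genes summed to 18115 and 23597 CPM in the same cells, and the part of that difference in the Socs3 value was not tested. The log2 ratio of 0.51 was 0.02 when each cell was named alone and -0.21 under a separate, higher UMI minimum for each library. Endothelial-like cells held 575 CPM (1377 UMIs, 545 to 606) and 569 CPM (3025 UMIs, 549 to 590), a ratio of 0.990 (0.928 to 1.06), and neutrophil-like cells 527 and 631 CPM, a ratio of 1.20 (0.958 to 1.51).

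Principal or connecting tubule-like cells had the lowest Socs3 ratio of the 13 classes. They held 295 CPM (1783 UMIs, 281 to 309) in the control library and 127 CPM (870 UMIs, 119 to 136) in the haplodeficient library, far apart, with a ratio of 0.431 (0.397 to 0.468). A UMI was found in 50.1% and 34.5% of cells, or 16.6% and 7.31% after thinning. In this class 2.1% of genes passed the size rule, and Socs3 was the 1 of 5 members to do so; in 8 of 11 alternative settings it still passed, with log2 ratios from -1.36 to -0.82. The class's own 9 markers summed to 6369 and 3679 CPM, while the dissociation-stress list stood at 11100 and 11332 CPM; the part of the marker difference was not tested. The Havcr1-led cluster showed a lower ratio still, with 130 CPM (1063 UMIs, 122 to 138) and 35.1 CPM (149 UMIs, 29.7 to 41.2), a ratio of 0.270 (0.226 to 0.320).

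Elsewhere Socs3 stood at 350 and 254 CPM in descending thin limb-like cells (ratio 0.727, interval 0.685 to 0.771), at 320 and 242 CPM in thick ascending limb-like cells, at 340 and 214 CPM in dendritic cell-like cells, and at 297 and 217 CPM in macrophage-like cells. It stood at 271 and 274 CPM in distal convoluted tubule-like cells, 69.4 and 65.6 CPM in proximal-tubule-like cells and 38.9 and 54.8 CPM in T cell-like cells, each with an interval of the ratio that included 1. The median log2 ratio of all genes with enough signal was 0.20 in proximal-tubule-like cells. The dendritic cell-like log2 ratio of -0.65 was 0.16 under a separate UMI minimum for each library. The interval lay below 1 in 6 of 13 classes and above 1 in 1. Of 4299 genes with enough signal in all 13 classes, 13.2% had an interval below 1 in at least 6, the share to read that count against.

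Stat3, the transcription factor, had a flatter profile, from 594 CPM (4858 UMIs, 577 to 611) in control distal convoluted tubule-like cells to 184 CPM in control proximal-tubule-like cells. Distal convoluted tubule-like cells held 462 CPM (2764 UMIs, 445 to 480) in the haplodeficient library, below the control interval, with a ratio of 0.779 (0.743 to 0.816). Endothelial-like cells held 489 CPM (1171 UMIs, 462 to 518) and 376 CPM (1997 UMIs, 359.5 to 393), a ratio of 0.768 (0.714 to 0.826). Principal or connecting tubule-like cells had the lowest ratio, 0.584 (0.550 to 0.619), at 474 and 277 CPM, and intercalated cell-like cells held 513 and 330 CPM. Pericyte or smooth muscle-like cells (331 CPM in both libraries) and proximal-tubule-like cells (184 and 183 CPM) had ratios of 1.00 and 0.994. In proximal-tubule-like cells, however, the median log2 ratio of all genes with enough signal was 0.20, so Stat3 stood below the typical gene there. The median mitochondrial share of that class was 22.7% and 6.99%, and its part was not tested. The interval lay below 1 in 9 of 13 classes, a count that 3.7% of the 4299 genes reached, and no class passed the size rule.

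Over the 117 pairs of a member and a compared class, 74 had enough signal. The size rule was passed by 1 pair in the direction of a higher level in the haplodeficient library and by 4 pairs in the lower direction, against 0.803% and 1.26% of 109285 pairs of any gene and class. The interval of the ratio lay above 1 in 2 pairs (2.70%) and below 1 in 36 pairs (48.6%), against 20.1% and 16.3% of all pairs. The median log2 ratio was -0.29 over the members' pairs and 0.02 over all pairs. Pairs share cells, libraries and genes, so these shares are a description of 2 libraries. A counting interval narrows as UMIs rise. These shares, like those given for Il6st, Socs3 and Stat3, were not matched for UMIs. No member passed the size rule in endothelial-like cells, where 1.07% of 9148 genes did, or in macrophage-like cells, where 0.889% of 7420 did.

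**Figure D4:**
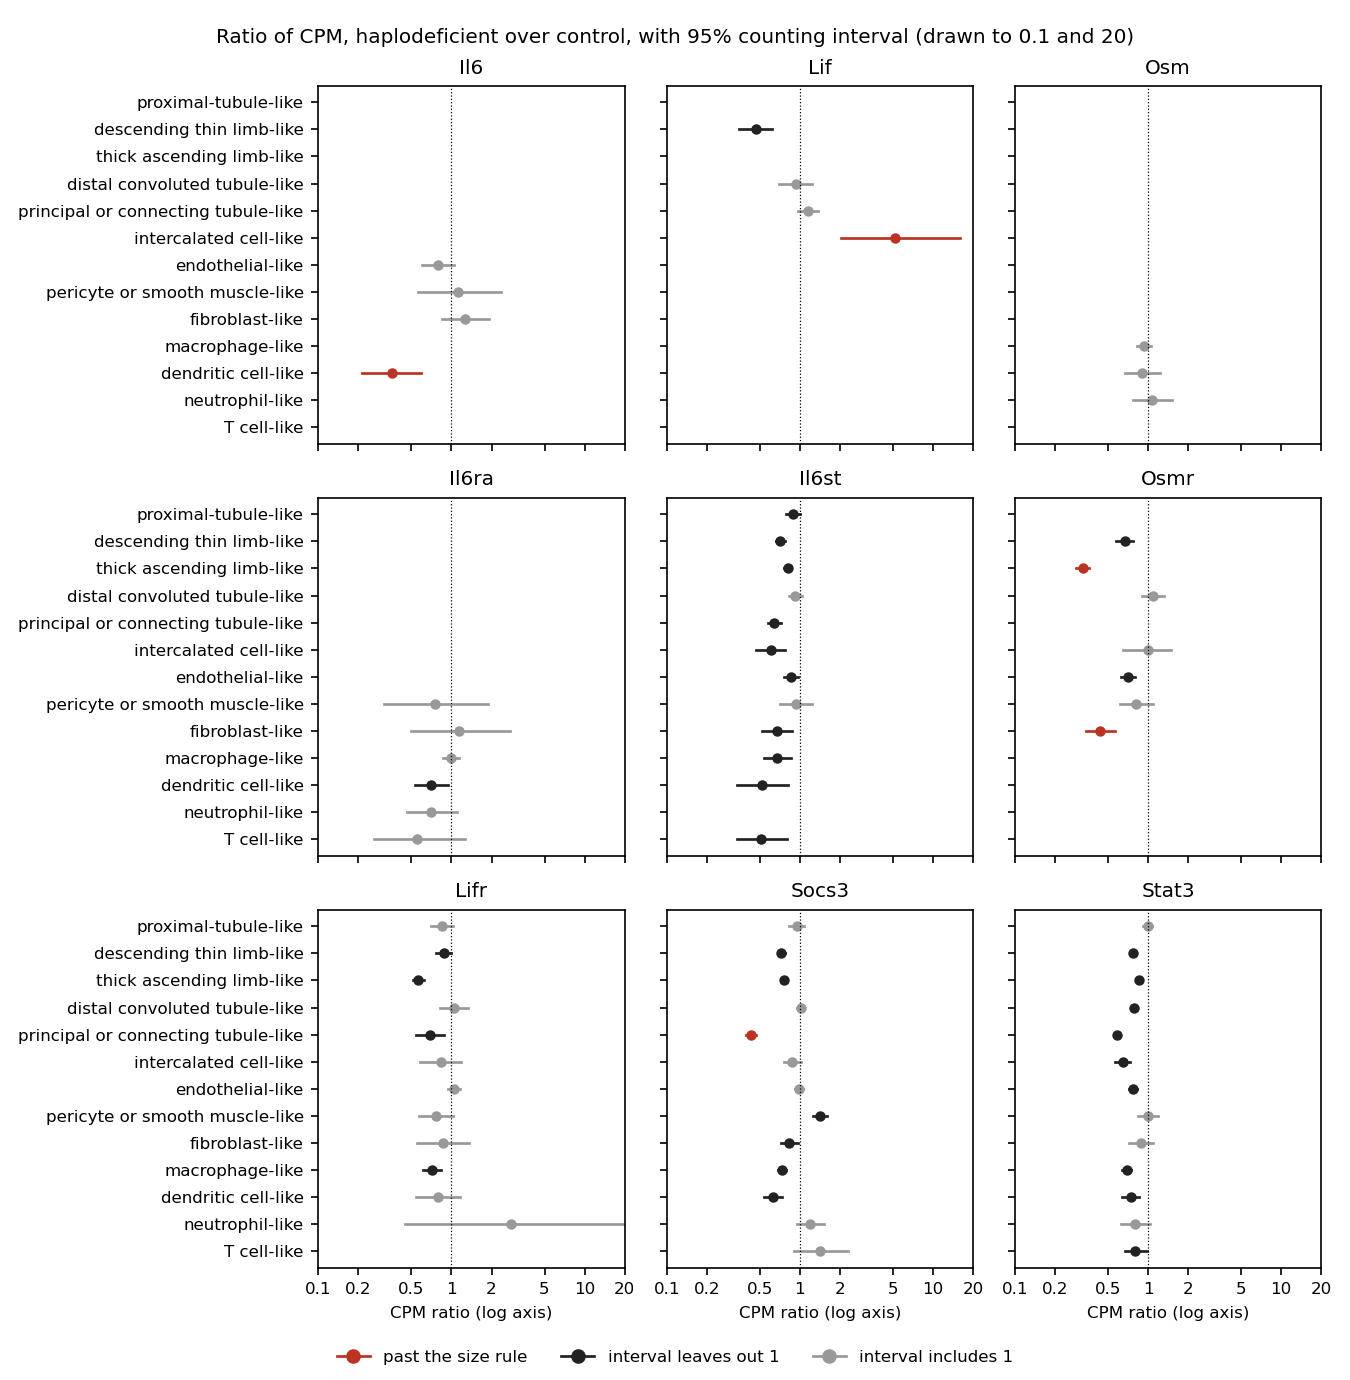
Ratio of CPM, haplodeficient over control, with its 95% counting interval (log axis) for each gene in each class with enough signal; the dotted line marks 1. Points for Il6st and Stat3 lie at or left of the line in nearly every class, Osm points lie on it, and Socs3 runs from 0.431 in principal or connecting tubule-like cells to 1.43 in pericyte or smooth muscle-like cells.

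Endothelial-like cells, the class in which the recombinase is driven, were divided into 7 subclusters, of which 5 were named from markers. Il6 was mainly arterial: arterial-like cells held 143 CPM (67 UMIs, 111 to 181) in the control library and 167 CPM (87 UMIs, 134 to 206) in the haplodeficient library, a ratio of 1.17 (0.842 to 1.64). These 55 and 73 cells carried 78.8% and 58.0% of the class's Il6 UMIs, and 16 and 14 of them had any. Capillary-like cells had 0 Il6 UMIs in 89 control cells and 29 UMIs in 19 of 274 haplodeficient cells (23.2 CPM). With 0 control UMIs no ratio is given, and the haplodeficient level was 2.33-fold that of 3 control UMIs. In descending vasa recta-like cells Il6 stood at 6.30 and 14.1 CPM on 4 and 14 UMIs.

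The receptors separated the vessel segments. Osmr was highest in arterial-like cells, at 426 CPM (200 UMIs, 369 to 490) and 281 CPM (146 UMIs, 237 to 330.0), a ratio of 0.658 (0.528 to 0.819), and stood at 101 and 107 CPM in descending vasa recta-like and 106 and 76.1 CPM in capillary-like cells. Lifr was highest in glomerular-like cells, at 649 CPM (156 UMIs, 551 to 759) and 501 CPM (396 UMIs, 453 to 553), a ratio of 0.772 (0.640 to 0.935), and stood at 187 and 205 CPM in descending vasa recta-like cells. Il6st was 355 and 232 CPM in the 19 and 37 selectin-positive-like cells and 180 and 182 CPM in capillary-like cells.

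The endothelial Socs3 ratio near 1 stood beside segment ratios on both sides of 1. The mix of segments also differed between libraries. Of 362 control and 794 haplodeficient endothelial-like cells, 55 and 73 were arterial-like and 89 and 274 capillary-like. Unnamed subclusters, of 68 and 150 and of 13 and 28 cells, are not described. Socs3 stood at 1051 CPM (493 UMIs, 960 to 1148) and 738 CPM (384 UMIs, 666 to 816) in arterial-like cells, a ratio of 0.703 (0.613 to 0.804), and at 249 and 168 CPM in descending vasa recta-like cells, a ratio of 0.675 (0.540 to 0.844). It stood at 372 CPM (112 UMIs, 307 to 448) and 491 CPM (613 UMIs, 453 to 531) in capillary-like cells, a ratio of 1.32 (1.08 to 1.63), and at 1013 and 1422 CPM in selectin-positive-like cells, a ratio of 1.40 (1.13 to 1.75). Glomerular-like cells lay between, at 911 and 869 CPM. Whether these ratios differ between segments was not tested. Stat3 stood at 452 and 229 CPM in descending vasa recta-like cells, a ratio of 0.507 (0.424 to 0.606), the lowest of the named segments.

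**Figure D5:**
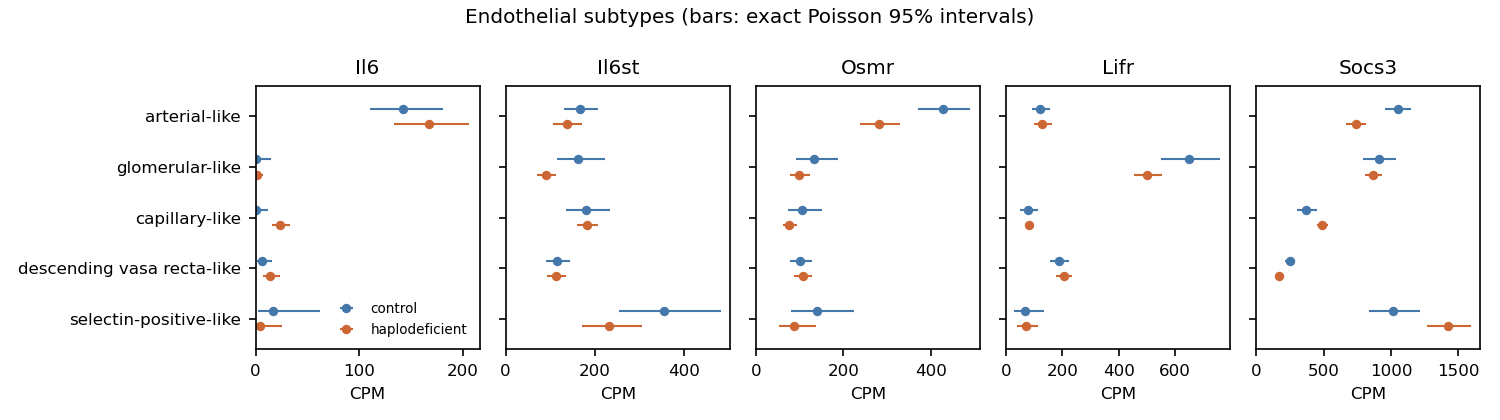
CPM of 5 genes (x axes) in the 5 named endothelial subtypes; points are summed UMIs of 1 library and bars exact Poisson 95% intervals. Il6 and Osmr are highest in arterial-like cells and Lifr in glomerular-like cells, and the Socs3 points of the 2 libraries change order between arterial-like (1051 and 738 CPM) and selectin-positive-like cells (1013 and 1422 CPM).

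Other genes of the pathway were read from gene lists over the same 13 classes. The 7 other ligand genes of the family gave 17 pairs with enough signal, of which 6 had an interval above 1 and 0 below, with a median log2 ratio of 0.18. The 4 other receptor subunits gave 27 pairs (6 above, 4 below, median -0.01), the 7 kinases and other transducers 83 pairs (13 above, 23 below, median -0.07), the 6 feedback genes 60 pairs (8 above, 16 below, median -0.06) and the 3 receptor-shedding genes 37 pairs (4 above, 15 below, median -0.08). The 16 genes of the STAT3 response list gave 118 pairs, 40 above and 30 below, with a median of 0.03, and the 13 dissociation-stress genes 165 pairs, 64 above and 57 below, with a median of 0.00. No list had the members' share of intervals below 1 (48.6%), and that of the shedding genes (40.5%) was nearest. The lists were not matched to the members for UMIs.

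In the classes with most members, few list genes passed the size rule. In dendritic cell-like cells these were Lcn2, an iron-binding acute-phase protein gene, at 7.85 and 30.9 CPM with a ratio of 3.94 (1.79 to 10.3), and the heat-shock gene Hspa1b at 85.2 and 18.7 CPM. Jak2 and Jak1, kinases bound to gp130, stood there at 326 and 233 CPM and at 281 and 173 CPM, the phosphatases Ptpn1 and Ptpn2 at 313 and 247 CPM and at 139 and 98.6 CPM, and the sheddases Adam17 and Adam10 at 154 and 111 CPM and at 103 and 77.0 CPM. Those 6 intervals of the ratio lay below 1, and no others of the same 3 lists did. With enough signal there were 7 kinases and other transducers, 5 feedback genes and 3 shedding genes. None had an interval above 1. Ratios above 1 with intervals that included 1 were those of Tyk2 (1.07), Stat5a (1.04), Socs2 (1.19), Rhbdf2 (1.26). Ebi3, a chain of interleukin-27, stood at 41.5 and 31.5 CPM and Il11ra1 at 20.2 and 24.5 CPM, both with intervals that included 1.

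In fibroblast-like cells Hp, which encodes haptoglobin, passed the rule at 6.95 CPM (4 UMIs) and 64.8 CPM (59 UMIs), a ratio of 9.32 (3.45 to 35.3). The interleukin-11 receptor gene Il11ra1 stood at 38.2 and 71.4 CPM with a ratio of 1.87 (1.14 to 3.18), and the ciliary neurotrophic factor receptor gene Cntfr at 33.0 and 11.0 CPM, a ratio of 0.333 (0.138 to 0.752). Jak1 stood at 395 and 392 CPM, with an interval of the ratio that included 1. In the same cells Fos stood at 2904 and 3057 CPM and Jun at 2333 and 2381 CPM.

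In pericyte or smooth muscle-like cells Jak2 passed the rule at 51.8 CPM (34 UMIs) and 20.5 CPM (25 UMIs), a ratio of 0.395 (0.226 to 0.682). Junb and Cebpb, genes of the STAT3 response list, stood at 3676 and 4269 CPM and at 877 and 1079 CPM, and the immediate-early genes Fos and Jun at 4991 and 7698 CPM and at 2676 and 3797 CPM; these 4 intervals lay above 1, as did that of Socs3. Junb and Cebpb were the 2 of 9 STAT3 response genes with enough signal there whose interval lay above 1, and 0 lay below. The median log2 ratio of those 9 genes was 0.030, against 0.045 for all genes with enough signal in the class. Of the 13 dissociation-stress genes, 6 lay above 1 and 1 below. In endothelial-like cells no list gene passed the rule. Of the 9 STAT3 response genes with enough signal in that class, 3 had an interval above 1 and 4 below 1, with a median log2 ratio of -0.07. There, Ptpn1 stood at 113 and 135 CPM, Jak1 at 361 and 301 CPM, and Rhbdf2, a partner of the sheddase Adam17, at 81.9 and 47.8 CPM, a ratio of 0.584 (0.483 to 0.707).

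Across the classes, the list gene past the size rule most often was Lcn2, chosen after its values were seen. Besides the dendritic cell-like class it stood at 1761 and 3595 CPM in distal convoluted tubule-like cells, 839 and 1775 CPM in descending thin limb-like cells and 147 and 410 CPM in intercalated cell-like cells, with ratios of 2.04, 2.12 and 2.79. Socs3 stood at 271 and 274 CPM in the first of these 3, 350 and 254 CPM in the next and 314 and 276 CPM in the last. Lcn2 was not higher in every class. In macrophage-like cells it stood at 31.1 and 21.3 CPM, a ratio of 0.686 (0.551 to 0.855). Its interval included 1 in T cell-, neutrophil-, fibroblast- and pericyte or smooth muscle-like cells. Short of the size rule, the interval lay above 1 in endothelial-, proximal-tubule-, thick ascending limb- and principal or connecting tubule-like cells. In neutrophil-like cells Ebi3 stood at 42.4 CPM (7 UMIs) and 119 CPM (142 UMIs).

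For each member the genes with the most similar profile were taken by Pearson correlation of log2(CPM + 5) over 17 named classes in both libraries (34 points, 15280 genes), which include the small cluster with B cell genes. The points of a class share cell type and those of a library share depth and free RNA, so the values are descriptions. The nearest were Nostrin for Il6 (0.87), Rnf121 for Lif (0.76), Fcgr3 for Osm (0.95), Lpcat2 for Il6ra (0.90), Dynlt3 for Il6st (0.92), Rbfox2 for Osmr (0.94), Tcf4 for Lifr (0.80), Zfhx3 for Socs3 (0.82) and Umad1 for Stat3 (0.76). The next nearest were Cped1 and Ecm2 for Il6, Gm12536 and Tmco4 for Lif, Gm6209 and Gm47754 for Osm, Tgfbi and Irak3 for Il6ra, Mast4 and Flywch1 for Il6st, Kank2 and Afap1l2 for Osmr, Tcf7l2 and Pkig for Lifr, Sbno2 and Mbnl2 for Socs3, and Nufip2 for Stat3. Among the members themselves Il6st and Osmr were most alike (0.80), followed by Osm and Il6ra (0.71), and Osm and Il6st ran most opposite (-0.66).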

How the data were processed

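The deposited values were raw UMI counts for each gene in every barcode, with no cell filter, from Cell Ranger 4, per the file headers; the submitters' processing notes name mm10. From them, cells were kept at 500 UMIs, 200 genes and 50% mitochondrial UMIs, and the 7.56% and 8.02% of cells with the highest doublet scores were removed. Both libraries were clustered together (scanpy 1.11.5, leidenalg 0.10.2, scikit-learn 1.9.0; 2000 genes, 30 components, 15 neighbours, resolution 1). A cluster was named from at least 3 markers at 2-fold in at least 10% of its cells; how markers were scored was chosen with the data in view, and the class names are rebuilt. Class sums were compared as CPM with exact Poisson intervals, and ratios with exact conditional binomial intervals (scipy 1.17.1), which cover counting error only. The ratio rule used log2(CPM + 5), which understates changes of low genes. The members and gene lists were chosen with earlier results of these data known. Named genes were the 9 members, list genes past the size rule in the classes with most members, or else the 2 with most UMIs, and the 3 most alike genes per member; a few genes under this rule are not reported here. Only the size rule was checked, on simulated Poisson class sums of endothelial- and macrophage-like cells. Clustering, naming, doublet removal and UMIs concentrated in single cells were not simulated. Of 14 alternative settings, 2 (nuclear UMIs only, and leaving out the cell with most UMIs of the gene) were chosen after seeing the data.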

Additional observations from a re-analysis of the deposited data

Results flagged for a closer look

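The ratio of Lif between the libraries was 5.23 in intercalated cell-like cells and 0.467 in descending thin limb-like cells, so the 2 classes went opposite ways. In the first, 17 of 20 haplodeficient UMIs came from 1 cell, and in the second 55 of 126 control UMIs came from 1 cell. The ratio of Socs3 was 1.43 in pericyte or smooth muscle-like cells and 0.431 in principal or connecting tubule-like cells. With 1 library per group, neither difference between classes was tested.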

How the results depend on the processing

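With 1 library per group no replicate could be left out. No paired analysis was possible because each group has 1 library. Of 842 values over 74 pairs and 14 settings, 735 moved by less than their counting interval, 95 moved by more and 12 reversed. A value was counted as reversed only where the main interval excluded 1. Changes of sign in other pairs, such as Osm in macrophage-like cells, are not among the 12. The settings differed widely in this. Thinning to 1000 UMIs moved 30 of the 74 pairs by more and reversed 4. Naming each cell alone moved 21 and reversed 1, and the own UMI minimum moved 8 and reversed 6. The settings that change only the minimum CPM and UMIs cannot alter a log2 ratio. Of the 38 pairs whose interval excluded 1, 28 kept their direction in all settings run. The count of 5 pairs past the size rule was 2 with doublets kept, 3 with each library's own UMI minimum (12 classes, since neutrophil-like cells were lost), 3 with a minimum of 50 CPM and 30 UMIs, 3 without the cell with most UMIs of the gene, and 4 to 6 otherwise. Osmr in endothelial-like cells (log2 ratio -0.49) was -0.69 with each cell named alone, -0.31 with the same cluster weights and -0.17 with cells thinned to 1000 UMIs. Socs3 there (-0.01) was -0.11 with doublets kept, -0.13 with the own UMI minimum, -0.24 with each cell named alone and 0.14 after thinning. Osm in macrophage-like cells (-0.10) was 0.11 after thinning. The own UMI minimum reversed Il6st in T cell-like cells (0.50), Il6 (0.83), Il6st (0.31), Socs3 (0.16) and Stat3 (0.12) in dendritic cell-like cells and Socs3 in pericyte or smooth muscle-like cells (-0.21). Thinning reversed Stat3 in T cell-like cells (0.12), Lifr in descending thin limb-like cells (0.21), Socs3 in fibroblast-like cells (0.14) and Il6st in thick ascending limb-like cells (0.062). Naming each cell alone reversed Il6 in dendritic cell-like cells (0.53), and keeping doublets reversed Socs3 in fibroblast-like cells (0.045). The cause was not tested. Of the 5 pairs, Osmr in thick ascending limb-like cells was past the rule in 12 of 12 settings (-1.61 to -1.35), Lif in intercalated cell-like cells in 8 of 11 (0.20 to 2.10), Socs3 in principal or connecting tubule-like cells in 8 of 11 (-1.36 to -0.82), Osmr in fibroblast-like cells in 7 of 11 (-1.50 to -0.65) and Il6 in dendritic cell-like cells in 5 of 11 (-2.08 to 0.83). Depth limits Il6, Lif and Osm most, since many of their values rest on under 100 UMIs.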
